A study of Bos taurus with 2 samples.

Results

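The 40 genes described here are textbook markers of the dividing cell: 20 are used most in S phase, when DNA is copied, and 20 in G2 and mitosis (G2/M). They were taken as a named list from the 17846 genes of the count table, and all 40 were present in it. Cells came from flushed day 25 chimeric bovine embryos, which were digested with papain, sorted and loaded on a droplet platform that reads the 3′ ends of transcripts. There were 2 libraries, replicate 1 and replicate 2, and no treated or control group. The sources used here do not give the sort gate, the number of embryos or the donor cells of the chimeras. Nor do they say whether the libraries came from separate embryos. The p-values rest only on how far differences between groups of cells varied from one of these libraries to the other, pooled over the groups. That spread may be technical. Expression was counted in UMI, that is, single tagged transcript molecules, with 11182089 UMI in 1973 barcodes for replicate 1 and 15427708 UMI in 2464 barcodes for replicate 2.

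In the dividing cell, the MCM proteins form the ring-shaped helicase that opens DNA at replication origins, CDC6 loads that helicase, and CDC45 and GINS2 belong to the complex that activates it. The kinase CDK1, switched on by the B cyclins CCNB1 and CCNB2, then drives entry into mitosis, where Aurora and Polo kinases, motor proteins and checkpoint kinases build the spindle and separate the chromosomes. CDC20 and UBE2C work with the ubiquitin ligase that ends mitosis. In the embryonic neural tube, dividing neuroepithelial progenitors line the lumen, and neurons leave the cell cycle as they differentiate and move outwards.

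Cells were grouped by how many different marker genes had a UMI after each cell had been thinned, that is, randomly reduced to exactly 2000 UMI. Of the cells with at least 1000 UMI and 500 genes, 190 in replicate 1 and 215 in replicate 2 held fewer than 2000 UMI and were left out. Progenitors had at least 2 of 9 neural progenitor markers (10 were listed and SOX3 had no row), such as SOX2, NES and PAX6, and at most 1 neuron marker, and they numbered 543 in replicate 1 and 660 in replicate 2. Neurons had at least 3 of 12 neuron markers, such as ELAVL3, DCX and TUBB3, and at most 1 progenitor marker, and they numbered 188 and 194. Noradrenergic neurons had at least 3 neuron markers and at least 2 of 5 further markers, such as DBH (47 and 66 cells). No limit was set on their progenitor markers, and cells that passed this gate were counted neither as neurons nor as intermediate cells. Intermediate cells passed both the progenitor and the neuron minimum (129 and 171 cells). Floor plate and roof plate progenitors, the ventral and dorsal midline cells of the neural tube, had at least 2 of their own markers (77 and 121 floor plate cells, 59 and 80 roof plate cells). Among non-neural cells, the mesenchymal gate required at least 3 of 12 markers, such as COL1A1 and PDGFRA (40 and 85 cells). These groups are ranges of marker counts and not cell types: 497 of the progenitors had exactly 2 progenitor markers, 73 neurons had exactly 3 neuron markers, and 1183 cells entered no group.

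Levels are given as CPM, the usual depth-scaled count, from the UMI summed over a group in 1 library and scaled with edgeR's TMM factors, which allow for differences in RNA composition. The markers separated the groups as gated. SOX2, a transcription factor of neural progenitors, stood at 269 and 296 CPM in progenitors and at 14.0 and 20.3 CPM in mesenchymal cells (replicate 1 and replicate 2 throughout). The summed level of the 12 mesenchymal markers was 46971 and 47243 CPM in mesenchymal cells against 122 and 224 CPM in progenitors. The mesenchymal cells also carried 22954 and 22552 CPM of the hepatic and yolk sac marker list and 11433 and 11599 CPM of the epithelial list, so the gate did not yield one pure mesenchymal signature. Globin markers were found in every group, with a median of 1 of 8 erythroid markers per cell in all the neural groups and in mesenchymal cells. The libraries shared 6 cell barcodes, 5 of them among the analysed cells.

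At matched depth, S phase and G2/M transcripts were found most often in progenitors among the 7 groups, and G2/M transcripts least often in noradrenergic neurons, in both libraries. Which group was lowest for S phase differed between the libraries. A cell counted as positive for a phase when it held at least 2 UMI of that phase's 20 genes among its 2000. By this measure, 70.0% (exact 95% interval 65.9 to 73.8) of progenitors in replicate 1 and 67.4% (63.7 to 71.0) in replicate 2 were S phase positive, and 56.7% (52.4 to 60.9) and 52.4% (48.5 to 56.3) were G2/M positive. Both libraries gave nearly the same progenitor shares. Neurons were S phase positive in 34.0% (27.3 to 41.3) and 22.2% (16.5 to 28.7) of cells and G2/M positive in 21.8% (16.1 to 28.4) and 12.4% (8.09 to 17.8). Noradrenergic neurons were S phase positive in 21.3% (10.7 to 35.7) and 25.8% (15.8 to 38.0) of cells and G2/M positive in only 1 of 47 and 2 of 66 cells, or 2.13% and 3.03%. The neuron and noradrenergic intervals lay below the progenitor intervals in both libraries and for both phases.

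In mesenchymal cells both shares were higher in replicate 2, although the intervals overlapped. S phase UMI were found in 17.5% (7.34 to 32.8) of mesenchymal cells in replicate 1 and 28.2% (19.0 to 39.0) in replicate 2, and G2/M UMI in 7.5% (1.57 to 20.4) and 21.2% (13.1 to 31.4). Free RNA in the droplets also gives UMI, and its part in these shares was not tested. Noradrenergic neurons, as differentiated cells, were taken for comparison, but they cannot set a background for S phase. Of their thinned cells, 1 in replicate 1 and 2 in replicate 2 held at least 10 S phase UMI. Such cells made up 2.13% and 3.03% of noradrenergic neurons, against 3.13% and 2.27% of progenitors. The S phase intervals of neurons and of mesenchymal cells overlapped the noradrenergic intervals in both libraries. Whether any of these S phase shares lay above free RNA was thus left undecided. For G2/M, neurons of replicate 1 and mesenchymal cells of replicate 2 lay above the noradrenergic interval (0.0539 to 11.3% and 0.369 to 10.5%), and the other pairs overlapped. Ribosomal protein genes moved with the groups, with a median of 24.4% and 24.9% of UMI in mesenchymal cells and 10.7% and 10.9% in noradrenergic neurons against 3.47% and 4.99% in progenitors, and their part in the shares was not tested. The sort may also have set some of these shares, and its part was not tested. All intervals cover counting error only.

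**Figure D1:**
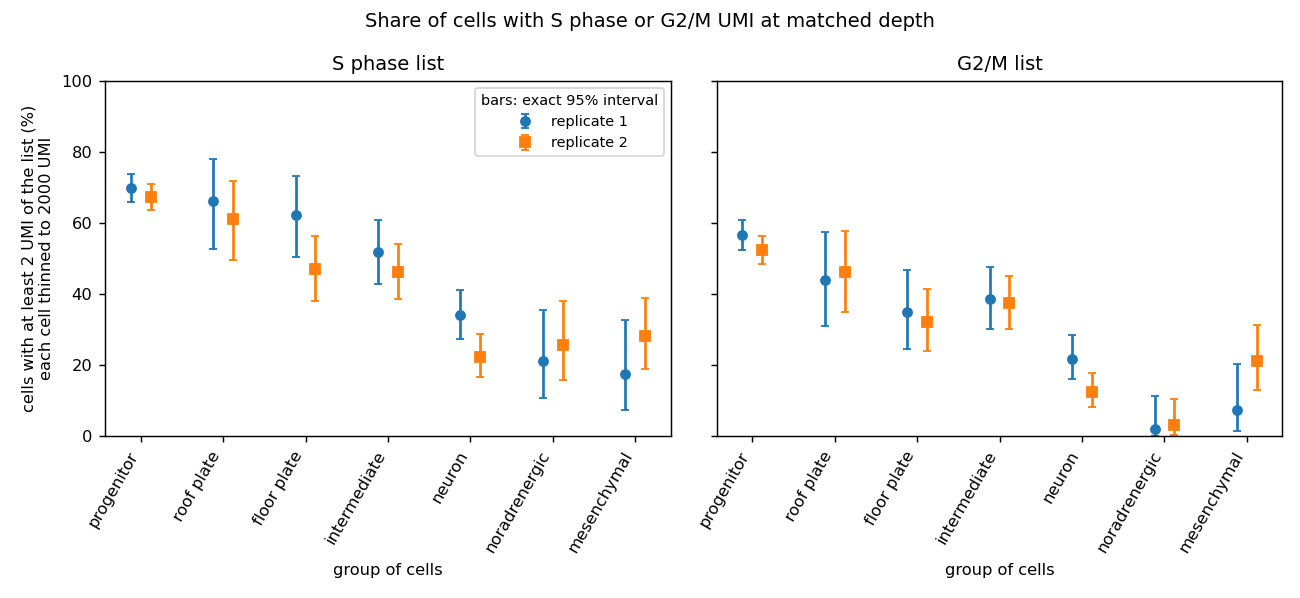
Share of cells (%) with at least 2 UMI of the S phase list (left) and the G2/M list (right) in 7 groups, each cell thinned to 2000 UMI; circles are replicate 1, squares replicate 2, and bars exact 95% intervals. Progenitors lie highest for both lists (70.0% and 67.4% for S phase), and noradrenergic neurons lie at 2.13% and 3.03% for G2/M.

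Without thinning, the shares were higher, and those of neurons, noradrenergic neurons and mesenchymal cells lay closer to those of progenitors. With more UMI per cell, a minimum of 2 UMI is easier to pass in any group. Neurons had a median depth of 5686.5 and 6555.5 UMI, near that of progenitors, and the part of depth in the narrowing was not tested. Progenitors were then S phase positive in 91.7% and 91.4% of cells and G2/M positive in 78.1% and 72.7%. Neurons reached 68.1% and 63.9% for S phase and 45.2% and 37.1% for G2/M, and noradrenergic neurons 68.1% and 77.3% for S phase and 42.6% and 34.8% for G2/M. Mesenchymal cells reached 65.0% and 76.5% for S phase and 40.0% and 50.6% for G2/M, at a median depth of 10930.5 and 11288 UMI against 5674 and 6189.5 UMI in progenitors. The G2/M share of noradrenergic neurons, whose median depth was 8848 and 7083.5 UMI, was thus 2.13% and 3.03% with thinning and 42.6% and 34.8% without it. The order of progenitors above neurons held with and without thinning.

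Most progenitors held transcripts of either phase, and many held both. In the progenitors of replicate 1, 24.5% of cells were positive for S phase alone, 45.5% for both lists, 11.2% for G2/M alone and 18.8% for neither. Replicate 2 gave 26.7%, 40.8%, 11.7% and 20.9% for the same 4 classes. In neurons, 57.4% and 70.6% of cells were positive for neither list, and in noradrenergic neurons 78.7% and 72.7%. Double-positive cells fell to 13.3% and 5.15% of neurons and to 2.13% and 1.52% of noradrenergic neurons.

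G2/M transcripts were concentrated in fewer cells than S phase transcripts. The 10% of progenitors richest in S phase UMI held 28.3% and 27.8% of all S phase UMI of that group, whereas the 10% richest in G2/M UMI held 40.7% and 40.0% of the G2/M UMI. Cells with at least 10 G2/M UMI made up 11.2% and 13.0% of progenitors, against 3.13% and 2.27% with at least 10 S phase UMI. In neurons, the top 10% held 59.7% and 66.5% of the G2/M UMI and 41.0% and 44.3% of the S phase UMI. Neurons with at least 10 G2/M UMI made up 3.72% and 2.58%. Neurons held 263 and 161 thinned G2/M UMI in all, against 2130 and 2558 in progenitors. The part of such low counts in the top shares was not tested. The G2/M measure did not rest on CENPF, a kinetochore protein, alone: without it, 49.2% and 46.1% of progenitors remained G2/M positive.

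Within progenitors, the S phase members split by class in nearly the same way in both libraries. Each cell was classed by the UMI of the other members, leaving out the gene described, and the level of that gene was then read in each class as CPM of the thinned UMI. MCM2, MCM3, MCM4, MCM5, MCM7 and UNG, which removes uracil from DNA, had their highest mean level in cells positive for S phase alone, and each of these 6 did so in both libraries. Some of these margins over double-positive cells were small. MCM3 read 93.8 against 90.2 CPM in replicate 1, and MCM4 93.6 against 91.1 CPM in replicate 2. The other 14 S phase members, including CDC6, CLSPN and the ribonucleotide reductase subunit RRM2, were highest on average in cells positive for both lists, 11 of them in both libraries and PCNA, E2F8 and UHRF1 in 1 library. MCM5 stood at 120 and 139 CPM in S phase cells, 53.9 and 75.8 in double-positive cells and 67.2 and 36.6 in G2/M cells. RRM2, in contrast, stood at 75.8 and 78.5 CPM in S phase cells and at 184 and 234 in double-positive cells. RRM2 was nearly absent from cells positive for neither list, at 4.85 and 14.1 CPM.

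Among the G2/M members, 12 had their highest mean level in cells positive for G2/M alone and 8 in double-positive cells, but the split was less reproducible. Of the 12, AURKA, CENPF, KIF20B, NUSAP1 and TPX2 were highest there in both libraries, while the other 7 (CCNB1, PLK1, BUB1, CENPE, HMMR, CDC20 and TOP2A) were highest in double-positive cells in 1 library. NUSAP1 was nearly tied, at 184 and 253 CPM in G2/M cells and 183 and 251 CPM in double-positive cells. AURKA rested on 3 and 4 UMI in G2/M cells. Of the 8, CDK1, CCNB2, AURKB, TTK, KIF11 and UBE2C were highest in double-positive cells in both libraries, and MKI67 and BIRC5 in replicate 1 alone. CENPF read 170 and 161 CPM in S phase cells and 1065 and 1216 in G2/M cells. CDK1 read 131 and 108 CPM in double-positive cells and 58.3 and 58.4 in G2/M cells. CDC20, which triggers the exit from mitosis, read 28.6 and 39.2 CPM in double-positive cells and 24.6 and 46.1 in G2/M cells. These class levels are descriptions, since the members of a list share cells and no test was made.

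**Figure D2:**
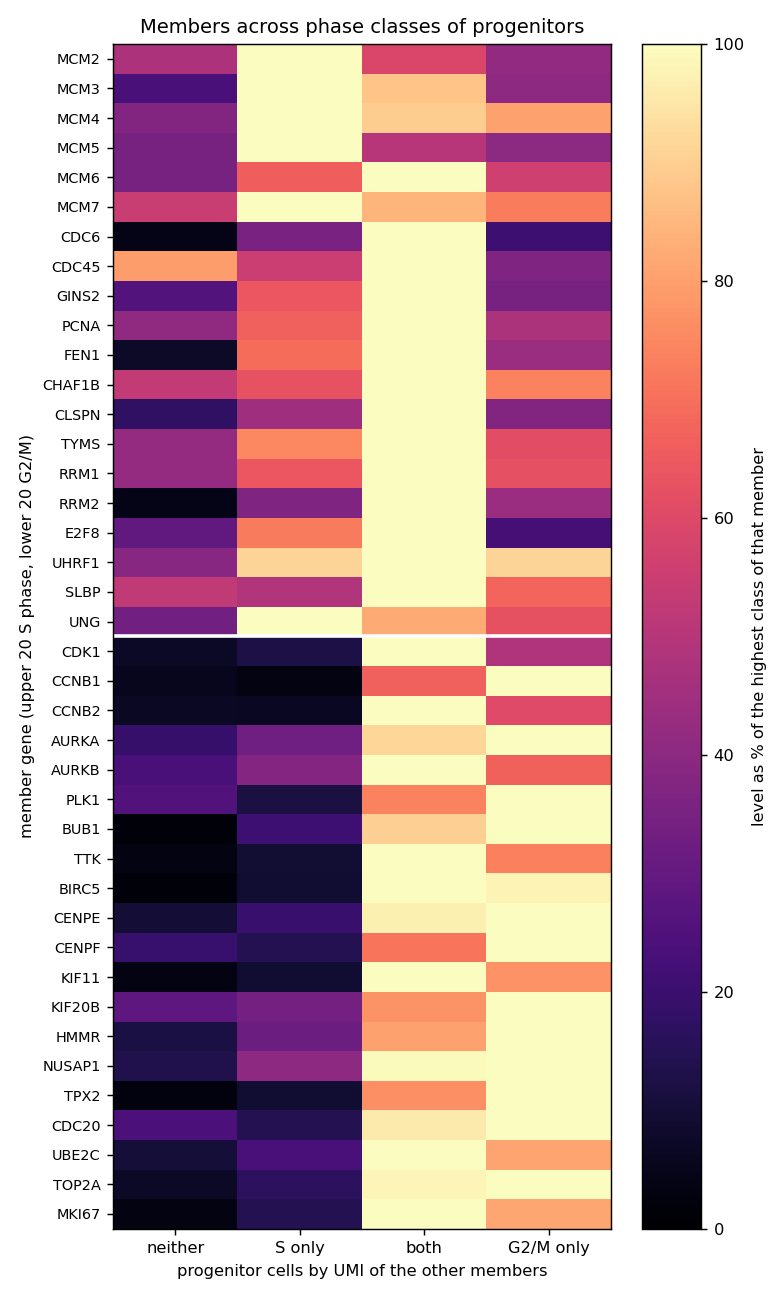
Level of each member in progenitors positive for neither list, for S phase alone, for both or for G2/M alone, as a percentage of that member's highest class (colour), with cells classed by the other members. The upper 20 rows are S phase genes and the lower 20 G2/M genes; 6 S phase members peak in the S only column and 12 G2/M members in the G2/M only column (mean of both libraries, 5 of the 12 in each library).

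In the summed levels too, progenitors lay above neurons, noradrenergic neurons and mesenchymal cells for both lists. S phase members summed to 1277 ± 43.1 CPM (SD, n = 2 libraries) in progenitors, 838 ± 2.53 CPM in intermediate cells, 516 ± 49.3 CPM in neurons, 502 ± 99.1 CPM in noradrenergic neurons and 521 ± 241 CPM in mesenchymal cells. G2/M members summed to 1533 ± 36.5 CPM in progenitors, 1242 ± 314 CPM in intermediate cells, 364 ± 95.9 CPM in neurons, 290 ± 139 CPM in noradrenergic neurons and 482 ± 245 CPM in mesenchymal cells. Neurons, noradrenergic neurons and mesenchymal cells lay below progenitors in both libraries, and on the TMM scale their means differed by less than the larger SD of each pair. That closeness depended on the scaling. Without TMM factors and with globins left out, S phase members summed to 250 and 484 CPM in mesenchymal cells and 645 and 532 CPM in neurons. G2/M members then summed to 220 and 459 CPM in mesenchymal cells and 506 and 328 CPM in neurons. In noradrenergic neurons of replicate 1, a single cell held 27 of the 40 thinned G2/M UMI, whereas no cell of replicate 2 held more than 2 of its 18. In these sums, fewer dividing cells and fewer transcripts per dividing cell cannot be told apart.

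**Figure D3:**
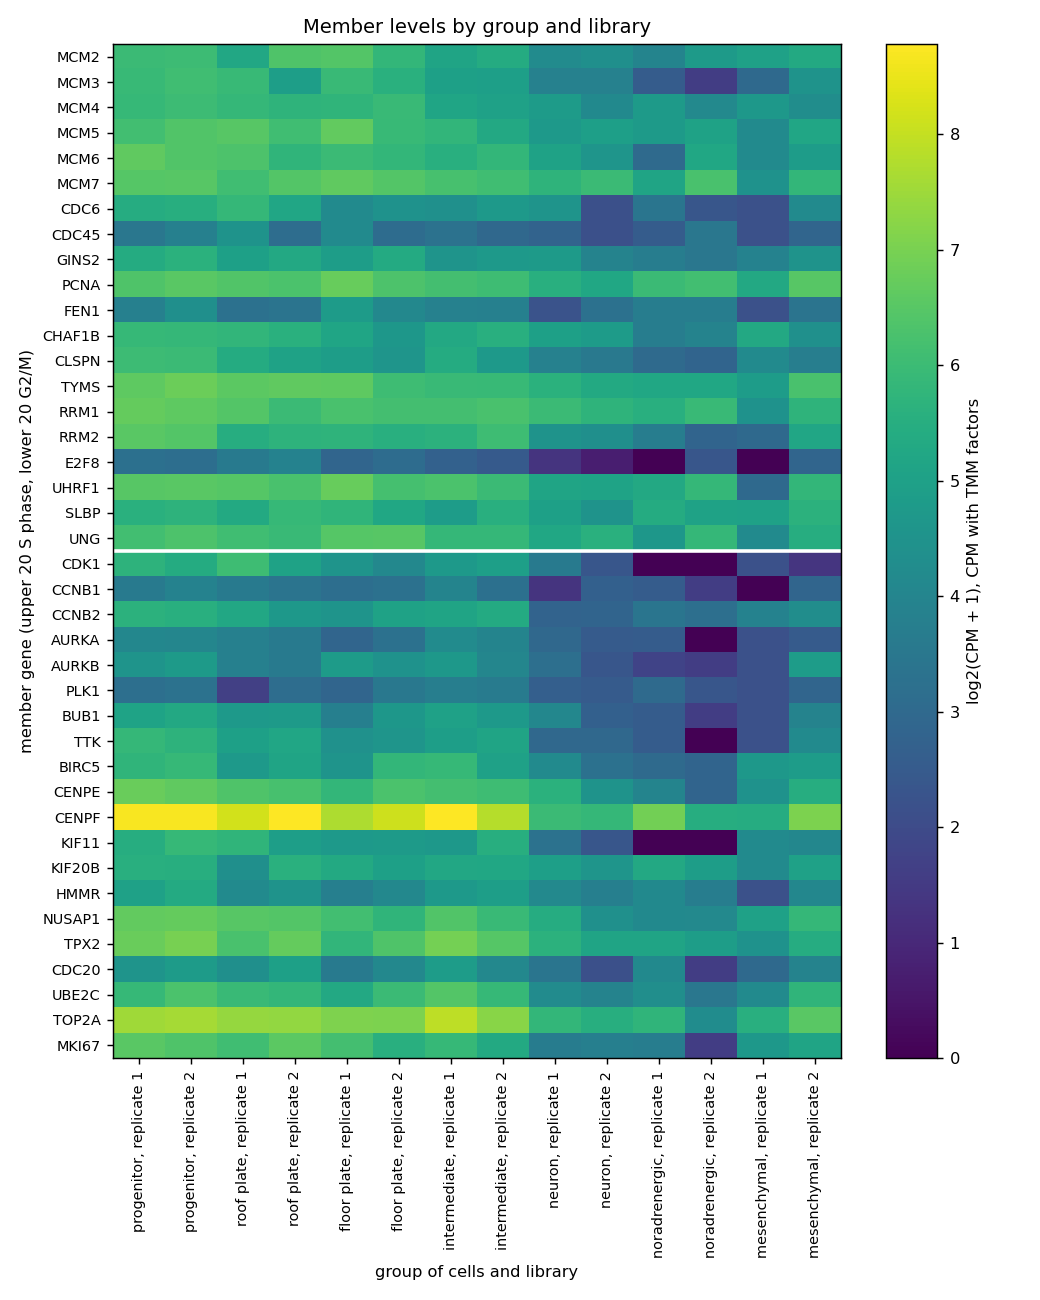
Levels of the 40 members as log2(CPM + 1) in 7 groups, with replicate 1 and replicate 2 side by side. The left columns, progenitors and roof plate, are bright for most rows, while the noradrenergic columns hold the darkest G2/M rows, with 0 UMI of CDK1 and KIF11.

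All 39 members that could be tested were lower in neurons than in progenitors. The test was edgeR's quasi-likelihood test on UMI summed per group and library, with library as a term and Benjamini-Hochberg adjustment over the 10702 genes that passed a filter on low counts, and a gene was called at an adjusted p under 0.05. PLK1, the Polo kinase of mitosis, did not pass the filter; its levels were 8.16 and 8.96 CPM in progenitors and 5.25 and 4.73 CPM in neurons. Of the 20 S phase members 20 fell, with a median log2 fold change of -1.39, and of the 19 G2/M members 19 fell, with a median of -1.94. Over all genes tested, 23.3% were called lower in neurons and 19.8% higher, and the median was -0.09.

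The MCM helicase fell as a whole, although unevenly. MCM3 dropped from 59.7 and 67.3 CPM in progenitors to 13.5 and 13.5 CPM in neurons, a log2 fold change of -2.23 (SE 0.27, edgeR adjusted p = 3.0e-08). MCM7, another subunit of the same ring, changed least of all S phase members, from 87.6 and 88.8 CPM to 51.0 and 62.2 CPM (log2 fold change -0.64, SE 0.21, adjusted p = 0.013). No neuron value of either gene overlapped the progenitor values, though how often this held over all genes was not counted. Among the remaining replication genes, the fork protector CLSPN fell by 2.38 and RRM2 by 2.10 on the log2 scale, against 1.08 for the sliding clamp PCNA, 0.81 for RRM1, the other subunit of ribonucleotide reductase, and 0.83 for UNG.

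Among the mitotic genes, the largest falls were those of KIF11, TTK and CCNB2. KIF11, the motor that pushes the spindle poles apart, went from 43.6 and 58.1 CPM to 9.0 and 4.05 CPM (log2 fold change -2.97, SE 0.35, edgeR adjusted p = 1.7e-08). TTK, a kinase of the spindle checkpoint, went from 56.9 and 49.9 CPM to 6.75 and 6.76 CPM, with a log2 fold change of -2.96 (SE 0.33, adjusted p = 4.5e-09). CCNB2 went from 48.7 and 45.4 CPM to 6.0 and 6.08 CPM, with a log2 fold change of -2.94 (SE 0.33, adjusted p = 4.5e-09). MKI67, which coats mitotic chromosomes and is the common proliferation marker, fell by 2.78 on the log2 scale, from 90.9 and 81.4 CPM to 12 and 12.8 CPM. KIF20B, a kinesin of cell division, fell least among the G2/M members, from 45.7 and 44.4 CPM to 30.01 and 23.0 CPM (log2 fold change -0.77, adjusted p = 0.011). E2F8, a repressor of S phase genes, rested on 3 UMI in neurons against 78 in progenitors, a level of 13.0% of the progenitor level with an exact interval of 2.63 to 39.6%.

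**Figure D4:**
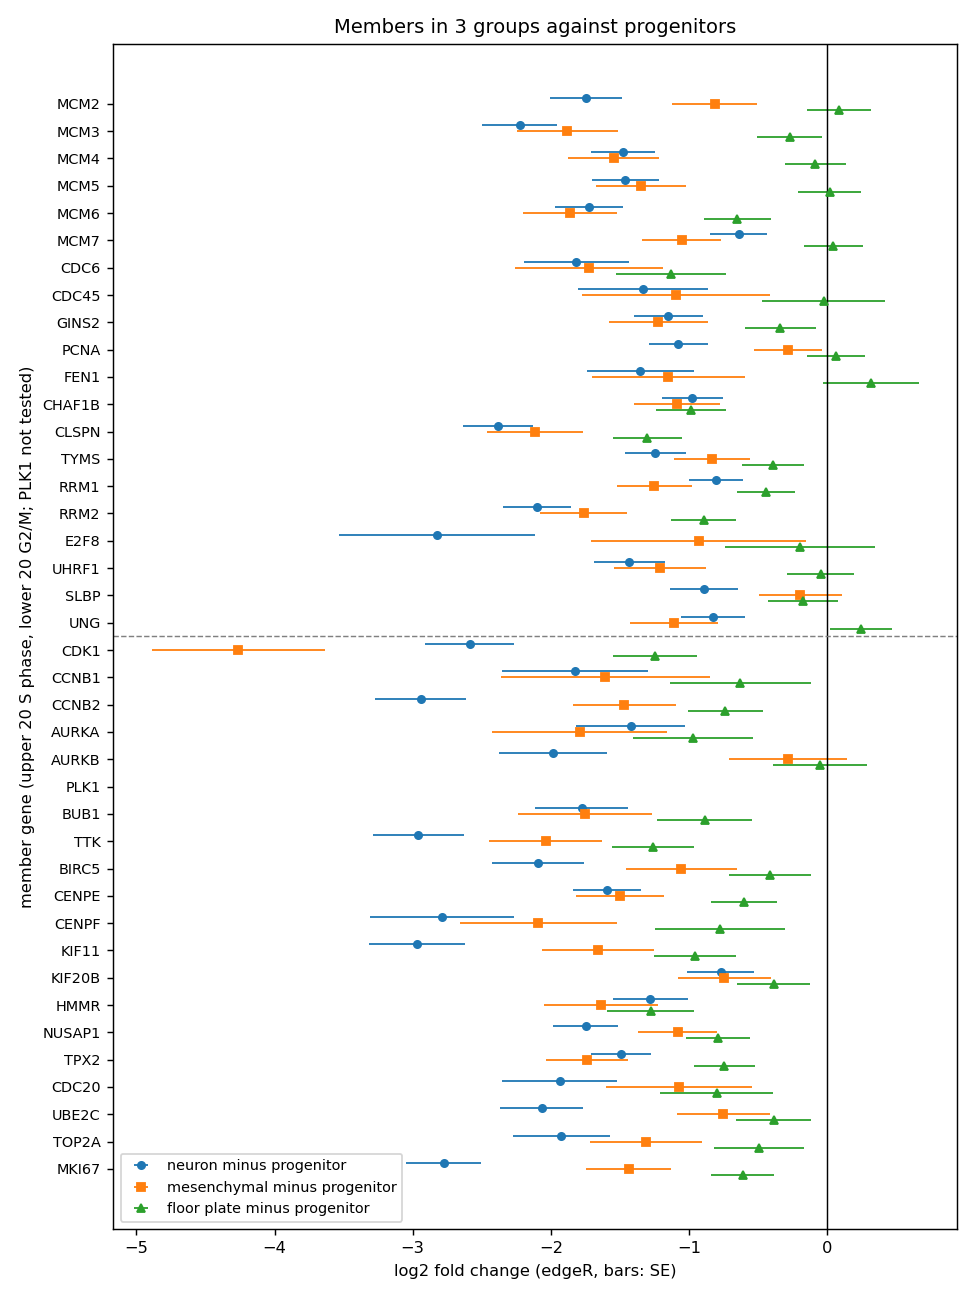
log2 fold change against progenitors, with SE bars, of the members in neurons (circles), mesenchymal cells (squares) and floor plate progenitors (triangles); the dashed line parts S phase from G2/M members. All neuron points lie below 0, from -0.64 for MCM7 to -2.97 for KIF11, while floor plate points for MCM2, MCM5 and PCNA lie close to 0.

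The noradrenergic neurons, a second kind of neuron, also held less of both lists than progenitors. Of the 19 G2/M members 17 were called lower than in progenitors, with a median log2 fold change of -2.62, and of the 20 S phase members 15, with a median of -1.51. Over all genes, 23.6% were called lower, and the median was -0.07. Both libraries had 0 UMI of CDK1 and of KIF11. Taking 3 UMI over both libraries as the limit of detection, CDK1 was at least 13.7-fold lower than in progenitors and KIF11 at least 15.3-fold lower. Setting these 2 genes at their limits cannot move the median, since both limits lie below it.

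TTK rested on 2 UMI in noradrenergic neurons, 4.17% of its progenitor level with an exact interval of 0.504 to 15.1%. MCM3 rested on 3 UMI and stood at 5.20% of the progenitor level (1.07 to 15.3%). CLSPN fell by 3.23 and RRM2 by 3.31 on the log2 scale. The S phase members PCNA, SLBP, CDC45, FEN1 and E2F8 were not called. PCNA, which also serves DNA repair outside S phase, stood at 62.7 and 69.5 CPM against 80.6 and 92.4 CPM in progenitors, with a log2 fold change of -0.39 (SE 0.25, edgeR adjusted p = 0.22). SLBP, which binds histone transcripts, stood at 41.0 and 32.7 CPM against 46.8 and 49.9 CPM, with a log2 fold change of -0.41 (SE 0.31, adjusted p = 0.30). The G2/M members not called were KIF20B, with a log2 fold change of -0.44, and CCNB1, which rested on 3 UMI.

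Mesenchymal cells also held less of both lists than progenitors, by an amount that differed between the libraries. Of the 20 S phase members 15 were called lower, with a median log2 fold change of -1.18, and of the 19 G2/M members 14, with a median of -1.50. None was called higher. Over all genes, 28.4% were called lower and 25.8% higher, and the median was -0.16. From replicate 1 alone, the medians were -1.83 for S phase and -1.97 for G2/M, and from replicate 2 alone -0.93 and -1.20. Scaling by plain totals in place of TMM moved the median of all genes by -0.79, to -0.96, and the members' medians to -1.97 and -2.29, so the distance of the members from the other genes changed little. By cluster, which holds 32 and 63 mesenchymal cells, G2/M positive cells made up 3.12% and 6.35%, against 7.5% and 21.2% by gate.

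The 6 MCM subunits were all called lower in mesenchymal cells, as were TYMS, RRM1 and RRM2, which supply DNA building blocks. CDK1 had 2 UMI in mesenchymal cells against 429 in progenitors, 4.81% of the progenitor level with an exact interval of 0.580 to 17.5%. CLSPN went from 63.6 and 62.7 CPM to 17.5 and 12.5 CPM (log2 fold change -2.12, SE 0.35, edgeR adjusted p = 4.8e-06). CENPF went from 416 and 412 CPM to 42.1 and 131 CPM, with a log2 fold change of -2.09 (SE 0.57, adjusted p = 0.014). PCNA and SLBP were nearest to their progenitor levels: PCNA read 38.6 and 89.1 CPM (log2 fold change -0.28, adjusted p = 0.35) and SLBP 31.5 and 48.4 CPM (log2 fold change -0.19, adjusted p = 0.61).

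Nor did FEN1, which trims Okazaki fragments, CDC45, E2F8, CCNB1, AURKB, KIF20B, CDC20 or UBE2C pass the threshold. AURKB, the kinase of the chromosomal passenger complex, read 3.51 CPM in replicate 1 and 28.1 CPM in replicate 2, against 22.1 and 26.3 CPM in progenitors. The replicate 1 level is that of 1 UMI, so this split between libraries rests on very few molecules. With the cells of 2 clusters made up almost wholly of 1 library left out, 17 G2/M and 15 S phase members were called lower.

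Whether mesenchymal cells and neurons differed from each other in these genes could not be settled. With TMM scaling, MCM2 and PCNA among the S phase members and MKI67, AURKB, UBE2C and CCNB2 among the G2/M members were called higher in mesenchymal cells, and none lower, where 26.9% of all genes were called higher. With plain totals, none was called higher, and 3 S phase and 2 G2/M members were called lower. Replicate 1 alone gave medians of -0.78 for S phase and -0.71 for G2/M, and replicate 2 alone 0.60 and 1.17, so the libraries pointed in opposite directions. The largest fitted differences, E2F8 (log2 fold change 1.89), AURKB (1.70) and CDK1 (-1.67), were those of genes with few UMI in these groups. E2F8 had 3 UMI in neurons and CDK1 had 2 in mesenchymal cells. AURKB had 1 UMI in mesenchymal cells of replicate 1. Of the 3 only AURKB was called (edgeR adjusted p = 0.013). KIF20B and BUB1, each at 0.02, differed least.

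Cells that carried progenitor and neuron markers together had lower shares positive for either phase than progenitors. At matched depth, 51.9% (43.0 to 60.8) and 46.2% (38.6 to 54.0) were S phase positive and 38.8% (30.3 to 47.7) and 37.4% (30.2 to 45.1) G2/M positive, all below the progenitor intervals. Of the 20 S phase members 8 were called lower than in progenitors, with a median log2 fold change of -0.65, and of the 19 G2/M members 1, MKI67, with a median of -0.33. Over all genes, 4.47% were called lower and 8.08% higher, and the median was -0.04. The 8 were MCM2, MCM3, MCM4, MCM5, MCM6, CLSPN, TYMS and GINS2, so MCM7 was the single MCM subunit not called (log2 fold change -0.35, edgeR adjusted p = 0.32). MCM3 read 30.5 and 29.9 CPM against 59.7 and 67.3 CPM in progenitors (log2 fold change -1.07, SE 0.25, adjusted p = 0.0025). CDC6 read 20.3 and 25.3 CPM against 42.7 and 44.6 CPM, but with a log2 fold change of -0.90 (SE 0.35) it was not called (adjusted p = 0.10). TOP2A, the topoisomerase that untangles chromosomes, read 239 and 147 CPM in intermediate cells against 183 and 193 CPM in progenitors, a log2 fold change of 0.01. UBE2C, at 85.8 and 57.5 CPM against 58.3 and 76.8 CPM, was as close, at 0.06.

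The difference between the lists in intermediate cells was not tested, and it depended on how the group was drawn. From a second random thinning, 13 S phase and 10 G2/M members were called lower, and from replicate 2 alone the G2/M median was -0.53. When groups were taken from clusters, which gave 37 and 44 intermediate cells, 17 S phase and 16 G2/M members were called lower, and cells positive for S phase were down to 13.5% and 4.55%. Of the gated intermediate cells, 25 in replicate 1 and 12 in replicate 2 lay in clusters made up almost wholly of 1 library. Doublets of a progenitor and a neuron would pass this gate too; the median depth was 4637 and 6020 UMI, against 5674 and 6189.5 UMI in progenitors, and their part was not tested.

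Outside the non-neural gates, the share positive for each phase was lower with 4 or more neuron markers than with 0 to 3. Cells of those gates, and ties between them, were left out of these shares. S phase positive cells made up 67.9% and 67.6% of cells with 0 neuron markers, 60.4% and 57.6% with 3, 40.8% and 30.7% with 4, and 17.1% and 16.3% with 7. G2/M positive cells made up 51.6% and 48.9% with 0 markers, 40.7% and 47.2% with 3, 33.8% and 21.3% with 4, and 9.76% and 2.33% with 7. Cells with 8 or more markers were S phase positive in 33.3% and 22.4%, higher than at 7 markers, though the intervals overlapped (18.0 to 51.8% and 13.6 to 33.4%). Each share was taken at 2000 UMI per cell, so the markers and the members competed for the same fixed number of UMI. The mean number of progenitor markers fell over the same range, from 2.29 and 2.24 at 0 neuron markers to 0.902 and 0.930 at 7.

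**Figure D5:**
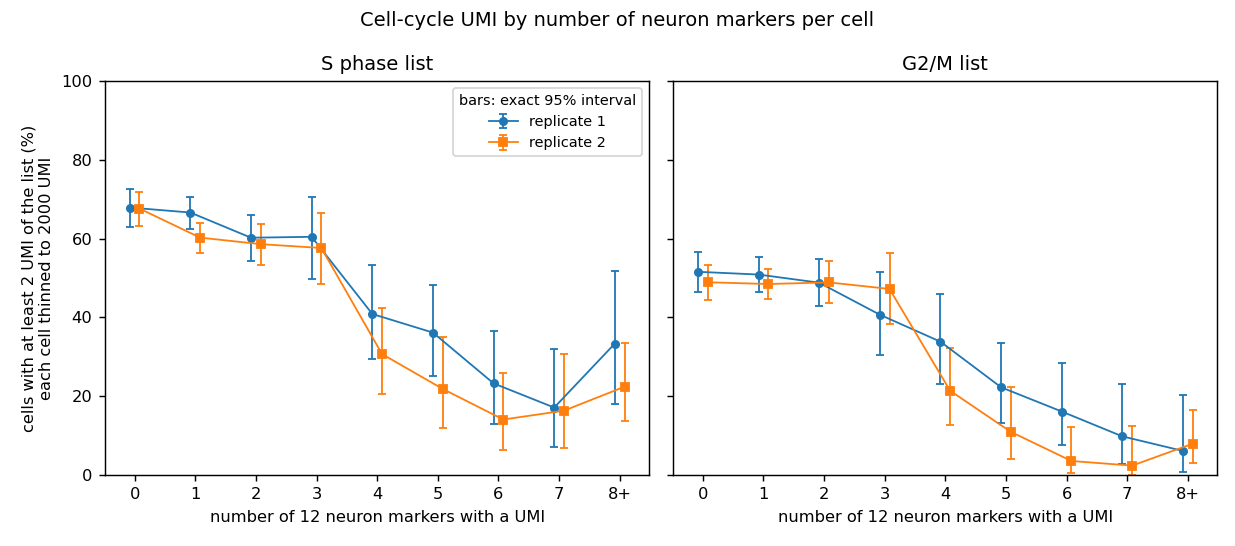
Share of cells (%) with at least 2 UMI of the S phase list (left) and the G2/M list (right) by number of neuron markers. Cells of the non-neural gates were left out, and markers and members were counted at 2000 UMI per cell. Lines are the 2 libraries and bars exact 95% intervals. Cells with 4 or more markers lie below those with 0 to 3 in both panels, and G2/M shares are 9.76% and 2.33% at 7 markers.

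Among progenitors, the floor plate cells held fewer G2/M transcripts. They were G2/M positive in 35.1% (24.5 to 46.8) and 32.2% (24.0 to 41.3) of cells, intervals that lay below those of the other progenitors in both libraries, and S phase positive in 62.3% (50.6 to 73.1) and 47.1% (38.0 to 56.4), of which the second lay below the progenitor interval and the first overlapped it. Ribosomal protein genes made up a median of 10.8% and 13.7% of their UMI, against 3.47% and 4.99% in other progenitors; with ribosomal protein, mitochondrial and globin genes left out of the fit, 6 G2/M and 3 S phase members were called lower. Without thinning, the floor plate shares were 58.4% and 57.9% for G2/M and 92.2% and 83.5% for S phase. Of the 19 G2/M members 6 were called lower than in other progenitors, with a median log2 fold change of -0.75, and of the 20 S phase members 3, with a median of -0.19. Over all genes, 3.42% were called lower, and the median was -0.05. From replicate 1 alone the S phase median was 0.01, and from replicate 2 alone -0.44.

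The G2/M members called lower in the floor plate were CDK1, TTK, HMMR, NUSAP1, TPX2 and KIF11, of which the last 4 organise spindle microtubules. HMMR read 12.7 and 16.3 CPM against 31.2 and 40.0 CPM in other progenitors (log2 fold change -1.28, SE 0.32, edgeR adjusted p = 0.012). TTK read 20.7 and 23.0 CPM against 56.9 and 49.9 CPM, with a log2 fold change of -1.26 (SE 0.30, adjusted p = 0.0075). The S phase members called lower were CLSPN, CHAF1B, a histone chaperone that follows the fork, and RRM2. CLSPN read 28.6 and 23.0 CPM against 63.6 and 62.7 CPM, with a log2 fold change of -1.30 (SE 0.25, adjusted p = 0.001). HMMR, TTK and CLSPN were named for the largest fold changes here, and their values did not overlap between the groups. MCM5 and CDC45 were named for the smallest. The values of MCM5, at 102 and 59.5 CPM against 69.2 and 83.3 CPM, did overlap (log2 fold change 0.02), as did those of CDC45 (log2 fold change -0.03). How often values failed to overlap over all genes was not counted. DESeq2 called 2 of the G2/M and 1 of the S phase members, and groups from clusters gave 13 G2/M members lower with 5 S phase members lower and 2 higher.

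The roof plate gate gave no member called by edgeR, where 0.159% of all genes were called lower and 0.925% higher. At an unadjusted p under 0.05, 3 S phase and 5 G2/M members were lower, and DESeq2 also called 0 and 0. The medians were -0.18 and -0.36, against -0.05 over all genes. Roof plate cells were S phase positive in 66.1% and 61.2% of cells and G2/M positive in 44.1% and 46.2%, and without thinning in 93.2% and 90%, and 64.4% and 65.0%. AURKB read 13.1 and 10.9 CPM against 22.1 and 26.3 CPM (log2 fold change -1.04, SE 0.46, adjusted p = 0.42). RRM2 read 43.6 and 49.7 CPM against 91.4 and 86.1 CPM (log2 fold change -0.92, SE 0.26, adjusted p = 0.085), and FEN1 had a log2 fold change of -0.86. SLBP and MCM5, at 0.03 and 0.01, were closest to the other progenitors. Groups from clusters, with 34 and 39 roof plate cells, gave 7 S phase and 9 G2/M members lower.

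Progenitors with PAX6 but no PAX3 UMI were S phase positive in 75.9% and 82.8% of cells and G2/M positive in 63.4% and 69.8%. Those with PAX3, a gene of the dorsal neural tube, but no PAX6 UMI were S phase positive in 73.3% and 68.7% and G2/M positive in 63.8% and 53.9%. In replicate 1 the pairs of intervals overlapped for both phases; in replicate 2 they overlapped for both as well, with S phase at 74.6 to 89.1% against 59.4 to 77.0%. Unthinned, the S phase shares were 91.1% and 94.8% against 93.1% and 89.6%, and the G2/M shares 81.2% and 84.5% against 84.5% and 73.0%. Progenitors with and without a GFP UMI had similar S phase shares, 69.9% and 67.7% against 70.1% and 66.8%. For G2/M the shares were 56.6% and 48.8% with GFP and 56.9% and 60.8% without it, so a gap was seen in replicate 2 alone. Unthinned, cells with GFP read 78.9% and 71.1% for G2/M and those without it 76.4% and 76.4%. GFP detection rose with depth, with medians of 6131 and 6977 UMI with GFP against 5150.5 and 4821 UMI without it.

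Other genes of replication and mitosis were lower in neurons as well. Of the lists chosen beside the members, 20 of 24 tested genes for origin licensing and replication forks were lower, as were 8 of 9 S to G2 cyclins and checkpoint genes and 23 of 24 genes of condensin, kinetochore and spindle. DTL, a subunit of the ligase that destroys licensing factors in S phase, fell by 2.49, the mitotic phosphatase CDC25C by 3.11 and the spindle pole protein ASPM by 2.97 on the log2 scale. Of the E2F, RB and MuvB regulators, 10 of 16 were lower, led by the mitotic gene activator FOXM1 (-2.59), and 1, RBL2, a pocket protein of resting cells, was higher (0.79). In mesenchymal cells, the counts were 18 of 24, 8 of 9 and 19 of 24 lower, with 11 of 16 regulators lower, E2F2 among them with 0 and 2 UMI, and 1, LIN37, higher (1.11). There DTL fell by 3.17 on the log2 scale, while the cyclin CCNA2 had 1 and 2 UMI and the kinesin KIF18A 1 and 0 UMI. Over all genes, 23.3% were called lower and 19.8% higher in neurons, and 28.4% and 25.8% in mesenchymal cells.

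Noradrenergic neurons gave 19 of 24 origin and fork genes, 8 of 9 cyclins and checkpoint genes and 21 of 24 condensin, kinetochore and spindle genes lower, with BUB3, a checkpoint protein, higher (0.86). CDC25C and the condensin subunit NCAPH had 0 UMI in both libraries there. Intermediate cells gave 10 of 24, 3 of 9 and 8 of 24 lower, led by DTL (-1.18), CCNA2 (-1.12) and the kinetochore subunit SPC24 (-0.96), and none higher. Of the regulators, 3 of 16 were lower in intermediate cells, with E2F3 at -0.72, and 10 of 16 in noradrenergic neurons, where E2F2 had 0 and 1 UMI and LIN37 was higher (0.95). Floor plate cells gave 3 of 24, 0 of 9 and 6 of 24 lower, led by the polymerase subunit POLE (-1.31) and the passenger protein CDCA8 (-1.41), and 3 of 16 regulators lower, led by E2F7 (-1.28). In the roof plate none of these genes was called. Over all genes, 23.6% were called lower in noradrenergic neurons, 4.47% in intermediate cells, 3.42% in floor plate and 0.159% in roof plate cells. The shares called higher were 22.7%, 8.08%, 4.17% and 0.925% in the same order.

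Of 4 tested inhibitors of cyclin-dependent kinases, 3 were called higher in neurons, 3 in noradrenergic neurons, 2 in mesenchymal cells, 2 in intermediate cells and 0 in the floor plate. Over all genes, the shares called higher were 19.8%, 22.7%, 25.8%, 8.08% and 4.17%. Among these inhibitors, CDKN2D, CDKN1C and CDKN1B rose in neurons and CDKN1A fell (-1.08). CDKN2D, which blocks the G1 kinases, went from 4.43 and 2.48 CPM in progenitors to 24.0 and 36.5 CPM in neurons, a log2 fold change of 3.13 (edgeR adjusted p = 2.4e-08), and to 45.8 and 40.9 CPM in noradrenergic neurons (3.64, adjusted p = 5.1e-08). In mesenchymal cells it was CDKN1C that rose most, from 54.8 and 61.9 CPM to 505 and 527 CPM (log2 fold change 3.14, adjusted p = 1.0e-10), and CDKN1A rose as well (1.27), while CDKN2D, at 0 and 6.25 CPM, was not called. CDKN2D and CDKN1C were also higher in intermediate cells, by 1.95 and 1.70. In floor plate cells edgeR called none of the 4 (0 at an unadjusted p under 0.05).

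The G1 cyclins, which start the cycle, differed between the groups. CCND1 rose from 76.4 and 84.0 CPM in progenitors to 1059 and 891 CPM in noradrenergic neurons (log2 fold change 3.61, edgeR adjusted p = 5.9e-17). In neurons CCND1 was higher by 0.63, whereas CCND2, CCND3 and CDK2 were lower, with log2 fold changes of -1.5, -1.12 and -1.77. In mesenchymal cells, CCND2 (1.52) and CCND3 (1.63) were higher than in progenitors and CCND1 (-0.89) and CCNE2 (-1.21) lower. CDK2, the partner of the E cyclins, was lower in noradrenergic neurons (-2.39). CCND2 was the G1 gene called in the floor plate, at 167 and 167 CPM against 83.7 and 107 CPM (log2 fold change 0.80, adjusted p = 0.0059).

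Genes of early neuronal commitment were called higher than in progenitors for 5 of 6 tested in intermediate cells, 3 of 6 in neurons and 3 of 6 in noradrenergic neurons. Over all genes, the shares called higher in these groups were 8.08%, 19.8% and 22.7%. DLL3, a Notch ligand of newborn neurons, read 135 and 171 CPM in intermediate cells against 1.63 and 4.95 CPM in progenitors (log2 fold change 5.47, edgeR adjusted p = 7.4e-17) and 51.0 and 61.5 CPM in neurons. INSM1, a transcription factor of delaminating progenitors and new neurons, read 73.3 and 106 CPM in those cells, 79.5 and 83.1 CPM in neurons and 0 UMI in mesenchymal cells. BTG2, an antiproliferative gene of this list that is not specific to neurons, was the one called higher in mesenchymal cells (3.40). Against neurons, mesenchymal cells were lower in 4 of these 6 genes, where 26.3% of all genes were called lower.

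Set directly against neurons, mesenchymal cells also differed in the genes around G1. CCND2 was higher (3.02) and CCND1 lower (-1.52), with 4 of 7 G1 genes higher and 2 lower. Of the inhibitors, CDKN1A (2.35) and CDKN1C (1.25) were higher, and CDKN2D (-2.82) and CDKN1B (-0.79) lower. Fewer of the downstream genes were called: 2 of 24 origin and fork genes were higher, led by ATAD2 (1.28), and 1 lower, ORC4 (-0.72), while of 24 condensin, kinetochore and spindle genes 2 were higher, led by SPC24 (1.68), and 3 lower. ATR, a kinase that senses stalled forks, was the one of 9 cyclin and checkpoint genes called, and it was lower (-1.23). Of the regulators, 2 of 16 were higher, led by E2F4 (1.35), and 5 lower, led by LIN9 (-1.92). Over all genes, 26.9% were called higher and 26.3% lower, so these counts are not read as particular to the lists. All of these values are on the TMM scale, from which plain totals moved the median of all genes by -0.68.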

How the data were processed

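The authors deposited raw UMI counts per gene and cell for 2 libraries in 1 table, which was used as deposited; per the submitters' processing notes, the tools were Seurat 4.3.0, R 4.1.2 and Cell Ranger (roles not stated), on build bosTau9. Filters applied before deposit are not given in the sources used here. Cells with at least 1000 UMI and 500 genes were thinned to 2000 UMI and grouped by the number of different markers with a UMI. Unthinned counts were summed per group and library where both libraries held at least 20 cells, which gave 8 groups and 16 sums, an erythroid group included. They were fitted with edgeR 4.0.16 (TMM, filterByExpr, robust quasi-likelihood, library as a term, 7 residual degrees of freedom) in R 4.3.3. No doublets were removed and no doublet caller was run. Since edgeR compares sums of the same libraries, the library term stands for the replicate number; the numbers do pair the groups, because same-numbered sums come from the same library. Intervals are exact binomial (Clopper-Pearson, 95%), and those of ratios come from the exact binomial test conditional on the total. Ratio intervals treat each UMI as independent and cover counting error only. They leave out the spread between cells and between libraries, so they may be too narrow.

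The members, marker lists and gates were chosen with earlier results of these data known. Members described in full were, per comparison, the 3 with the largest and the 2 with the smallest absolute fold change and those whose call differed from others of their role, and in each further list the called genes with the largest rise and fall. Alternatives were scaling, filters, thinning, stricter gates, clusters (scanpy 1.11.5, Leiden), DESeq2 1.42.0 and each library alone. The fitting step was tested on simulated data. Coordinates and sequences were not used here.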

Additional observations from a re-analysis of the deposited data

How the results depend on the processing

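Depth limited the mesenchymal, noradrenergic and roof plate sums, which held few UMI per member, and thinning to 2000 UMI left 16 S phase and 13 G2/M members tested. Members called lower in neurons numbered 20 and 19 with no filter on low counts, no replicate block and 4 alternatives chosen after seeing the data: plain totals, a second thinning draw, and fits without erythroid sums or without 1-library clusters. DESeq2 called 15 and 17 and clusters 18 and 18. From thinned cells (S phase, then G2/M), the calls were 14 and 12 lower in neurons, 4 and 6 in mesenchymal cells, 8 and 12 in noradrenergic neurons, 2 and 1 in intermediate cells and 0 and 1 in the floor plate. Calls cannot be counted from 1 library, which leaves no residual degrees of freedom, so medians are given instead.

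Library pairing changed few calls: without the replicate block, 3 in place of 6 G2/M members were lower in the floor plate, and no other count moved by over 1.5 times. Intermediate cells gave 5 S phase members lower with 1 more marker per gate, 2 with DESeq2, 13 from a second thinning and 17 from clusters; G2/M counts were 0 with DESeq2, 4 with no filter, 4 without 1-library clusters, 2 without erythroid sums, 10 from a second thinning and 16 from clusters. Floor plate counts were 1 and 2 with DESeq2, 5 S phase members with no filter, and 5 lower, 2 higher and 13 G2/M lower from clusters. Roof plate counts were 1 S phase member with no filter, 2 and 2 from a second thinning and 7 and 9 from clusters. The gates with 1 more marker left under 20 floor plate or roof plate cells per library, so those were not fitted.

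Between mesenchymal cells and neurons, S phase members called higher numbered 1 with no filter, without 1-library clusters, without erythroid sums or without ribosomal protein, mitochondrial and globin genes, and 0 with DESeq2, plain totals or clusters, of which the last 2 called 3 lower. G2/M members called higher numbered 2 from thinned cells, 2 from a second thinning (with 1 lower), 0 with plain totals (2 lower) and 0 from clusters. Medians reversed to -0.46 and -0.0091 with plain totals and to -0.24 and -0.41 from clusters, and ran from -0.78 to 0.60 (S phase) and -0.71 to 1.17 (G2/M) over single libraries. UBE2C reversed to -0.88 from clusters. Over single libraries UBE2C ran from -0.036 to 1.79, PCNA from -0.24 to 1.25 and AURKB from -0.94 to 2.39, each lowest in replicate 1. In the floor plate the S phase median ran from -0.44 to 0.0065 over single libraries. The causes were not tested. Plain totals moved the median of all genes by -0.12 in neurons and the floor plate and -0.23 in noradrenergic neurons.

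Mean shares of S phase and G2/M positive cells with a minimum of 1 UMI were 87.1% and 72.4% in progenitors, 57.4% and 42.2% in neurons and 47.7% and 28.4% in mesenchymal cells. A minimum of 3 UMI gave 51.1% and 44.9%, 14.2% and 10.8%, and 9.56% and 10.7%. Thinning to 4000 UMI gave 88.3% and 64.8%, 47.2% and 24.8%, and 29.6% and 18.0%. Of these 3 groups, progenitors had the highest mean share under each.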

Other observations

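UMI of both phases were found in cells with red blood lineage markers. The erythroid gate, at least 3 of 8 markers, took 26 cells in replicate 1 and 30 in replicate 2. Globins made up a median of 0.200% and 0.152% of the UMI in cells with exactly 3 markers. Cells with at least 4 markers (9 and 19 cells) were therefore read alone, a limit chosen after seeing the data, and globins made up 48.7% and 51.2% of their summed UMI. Leaving globins out of the total, and without TMM factors, S phase members summed to 2177 and 1386 CPM and G2/M members to 2125 and 2454 CPM, against 1573 and 1574 CPM and 1901 and 1876 CPM in progenitors. MKI67 read 284 and 169 CPM and TOP2A 198 and 346 CPM in the same cells. At 2000 UMI per cell, globins included, 77.8% (40.0 to 97.2) and 42.1% (20.3 to 66.5) of these cells were S phase positive (exact 95% intervals), and 33.3% (7.49 to 70.1) and 42.1% (20.3 to 66.5) G2/M positive. With so few cells, the levels were not tested against those of other groups. The epithelial gate held 13 and 15 cells, S phase positive in 61.5% and 40%, and the trophoblast gate 5 and 7 cells, with 1 S phase positive cell in each library.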
